A study of Mus musculus with 6 samples.

Results

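Glycolysis and the citric acid cycle were followed through 42 genes, chosen by gene symbol from the 34755 genes on a mouse expression array, and for each gene the probe brightest on average was used. Of these, 21 belong to glycolysis, from glucose uptake (Slc2a1) to lactate export (Slc16a3). The other 21 belong to the entry of pyruvate into the citric acid cycle and to the cycle itself. That second list, called the cycle here, also holds the cytosolic enzymes Aco1, Idh1 and Mdh1 and the kinase Pdk1. RNA came from macrophages grown for 7 days from the bone marrow of mice aged 6 to 8 weeks. Both genotypes carried LysM-Cre, a Cre recombinase expressed in myeloid cells, and both were Apoe-/-. The WT cells were Dicerwt/wt and the KO cells Dicerflox/flox, so the KO is a deletion that depends on how completely Cre acted in the cultured cells. Dicer cuts miRNA precursors into miRNAs, which AGO2 carries to their target transcripts. From each genotype, 1 array held RNA from the cleared lysate (input), 1 held RNA precipitated with a monoclonal antibody to AGO2 (AGO2-RIP) and 1 held RNA precipitated with control IgG (IgG-RIP). The comparisons ask how these transcripts differ with Dicer in the cell and which of them come down with AGO2.

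Values are log2 signals minus the 75th percentile of the array, so 0 is a signal at that percentile and a difference of 1 is 2-fold. With 1 array per group, a difference between groups has no replicate and no test. Repeated spots of the same probe on an array had an SD of 0.15 to 0.18, or 0.22 to 0.24 for a difference between 2 arrays and 0.34 for a difference of 2 differences, and these spreads leave out culture and precipitation. Equal amounts of cDNA were labelled, so the values are relative abundances within a fraction.

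The arrays ran well above background for 37.6% to 46.3% of spots, and no spot was saturated. Macrophage markers were well above background for 9 or 10 of 10 genes on every array, with a summed linear signal of 885 to 1405 times the array's 75th percentile. The marker missed was Lyz2, the lysozyme gene at the Cre locus, in WT input and WT AGO2-RIP. Lyz2 read -2.2, -4.3 and -1.2 in WT input, AGO2-RIP and IgG-RIP and 5.7, 3.6 and 4.1 in KO. Why the genotypes differ at Lyz2 was not tested. The summed signal was 2.45 to 9.97 for T cell markers (Cd4 on every array, Cd3e and Lck in every precipitate), 0.552 to 1.07 for B cell, 0.731 to 1.75 for neutrophil, 0.586 to 1.00 for fibroblast and 0.794 to 3.01 for erythroid markers. Of the T cell list, Cd3d, Cd3g and Cd8a were not well above background on any array, and Cd4 was the brightest on every array. Cd4, Cd3e and Lck read higher in the precipitates than in input, and their part in the results was not tested. Dicer1 read 0.22 in WT input and -0.55 in KO input, 0.93 and 0.94 in the AGO2-RIPs, and 0.18 in WT IgG-RIP, and was not well above background in KO IgG-RIP. Where that probe lies relative to the floxed part was not tested. The labels call all mice male, but Xist, the transcript of the inactive X chromosome, was above background on 3 of 3 WT and 0 of 3 KO arrays, and Y-linked Ddx3y on 0 WT and 3 KO arrays. Sex, genotype and slide row therefore cannot be told apart in any comparison of WT with KO.

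Glycolysis splits glucose into pyruvate in the cytosol, with a small yield of ATP that can be raised quickly, and lactate dehydrogenase regenerates the NAD+ it needs. The pyruvate dehydrogenase complex turns pyruvate into acetyl-CoA, which the citric acid cycle oxidises in the mitochondrion to feed the respiratory chain. Macrophages shift between these routes: inflammatory activation raises glycolysis through HIF-1 and interrupts the cycle at isocitrate and succinate, while alternatively activated cells keep the cycle running.

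Of the 42 genes, 37 were well above background on all 6 arrays (18 glycolysis and 19 cycle genes), against 12385 genes of the whole array. Pcx, pyruvate carboxylase, was above background only in WT AGO2-RIP (-1.48). Pfkm, the muscle phosphofructokinase, missed on both input arrays, Pfkfb4 and Suclg2 missed in WT IgG-RIP, and Eno2, the neuronal enolase, missed in KO AGO2-RIP. Probe signals of different genes depend on the probe, so levels are compared within a gene only.

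**Figure D1:**
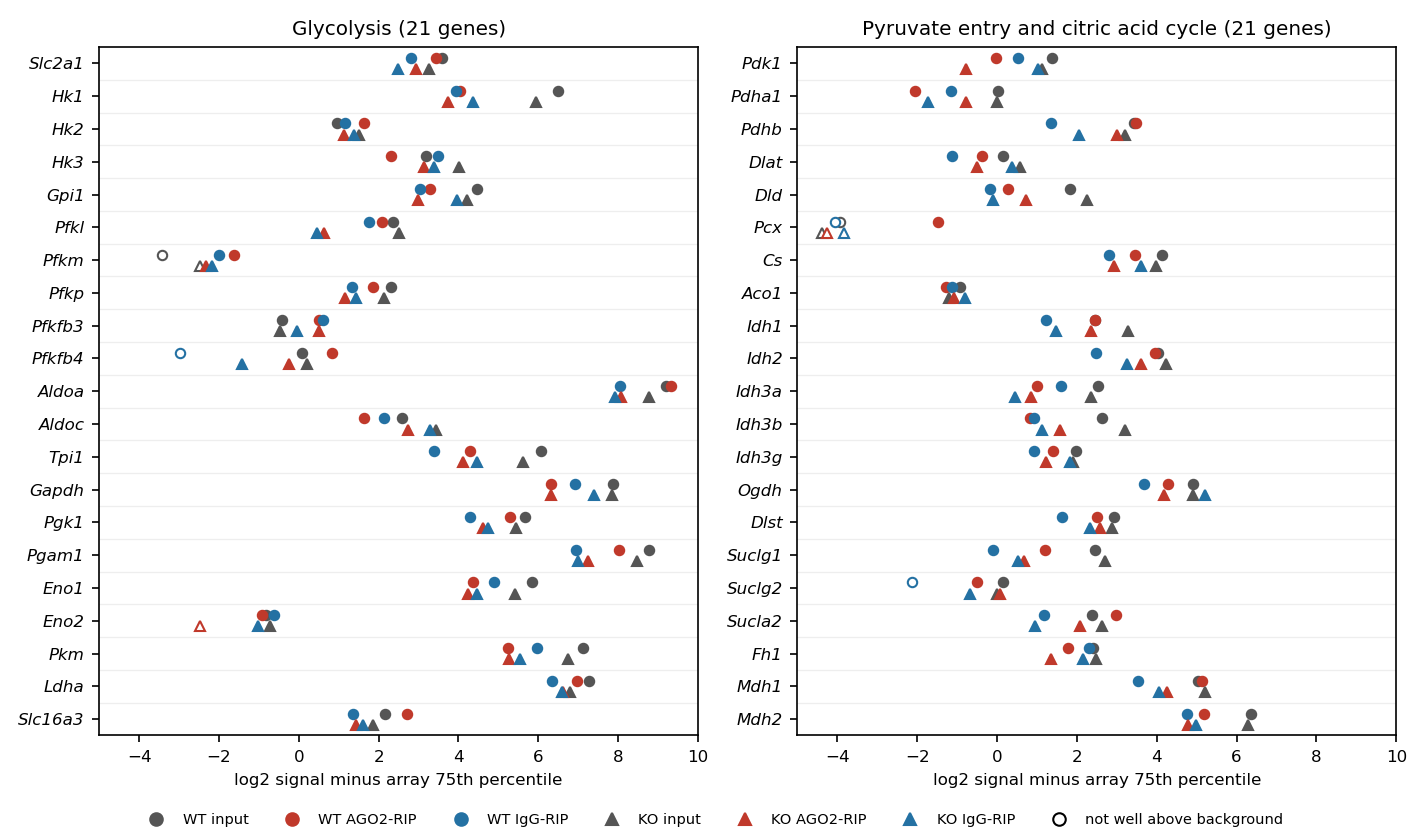
Log2 signal minus the array's 75th percentile (x axis) of each gene on the 6 arrays, 1 row per gene, glycolysis on the left and pyruvate entry and cycle on the right; circles are WT, triangles KO, and colours mark the fraction. Input lies to the right of both precipitates for most genes, as for Hk1 (6.49 in WT input against 4.04 and 3.94 in the precipitates), and open symbols, such as 5 of the 6 for Pcx, were not well above background.

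In the input RNA, no measured gene of the 40 differed by 2-fold between KO and WT in either direction. Of all 14664 genes, 1.02% were at least 2-fold higher in KO and 1.73% at least 2-fold lower, so 0 of 40 is near the background. The median KO minus WT difference was -0.23 for glycolysis, -0.0019 for the cycle and -0.077 for all measured genes. The count was 0 in both directions under each of the 7 alternatives run, over 40 genes in most of them, 37 where all 6 arrays had to be above background and 42 without a filter.

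The largest input differences were in isozymes at the ends of the order. Aldoc, the brain-type aldolase, read 2.58 in WT input and 3.44 in KO input, 1.64 and 2.74 in the AGO2-RIPs, and 2.14 and 3.29 in the IgG-RIPs, WT first. It was higher in KO in all 3 fractions, by 0.86 in input. Aldoa, the main aldolase, went the other way in input, at 9.20 in WT and 8.77 in KO. Hk3, a hexokinase of myeloid cells, read 3.18 in WT input and 4.00 in KO input, and Idh1, the cytosolic NADP isocitrate dehydrogenase, 2.46 and 3.28. At the low end, Hk1 was 0.55 log2 lower in KO, Ldha 0.47 lower and Aldoa 0.43 lower, or 1.46-fold for Hk1. The other Hk1 probes gave 0.34 and 0.043, so its input difference rests on the brightest probe. The other Ldha probes gave -0.19 and -0.21. Quantile normalization reduced the differences to -0.27 for Hk1, -0.17 for Ldha and -0.15 for Aldoa. With median centring and normexp these differences moved by less than the spot spread. Of the 8 genes from Gapdh to lactate export, the median was -0.31, and the highest was Eno2 at 0.10.

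The AGO2 precipitate was set against the IgG precipitate to ask which transcripts came down with AGO2 beyond the control. In WT, 10 of 39 measured genes reached 2-fold above IgG-RIP, 4 of glycolysis and 6 of the cycle, and 1 reached 2-fold below it. Of all 15216 measured genes, 20.3% reached 2-fold above and 22.2% 2-fold below, so the share of higher genes among the 39 was near the background while lower genes were fewer. Medians were 0.35 for glycolysis and 0.60 for the cycle, against -0.24 for all genes. In KO, 2 of 40 (Pfkfb4 and Sucla2) reached 2-fold above IgG-RIP and 3 (Pdk1, Gapdh and Ogdh) 2-fold below, beside 10.5% and 9.92% of 15650 genes. Gapdh is past 2-fold at 1 of its 7 probes, the brightest, and its brightest probe placed at the gene leaves 2 genes below. The KO medians were -0.20, 0.22 and -0.19. Glycolysis therefore lay at the median of all genes in KO and the cycle above it.

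How the arrays are scaled moves these counts. Centring each array on its median raised the WT median of all genes from -0.24 to 0.056 and the genes of the 2 pathways with it, to 13 higher and 0 lower, while quantile normalization gave 8 and 2 and a background correction by normexp 10 and 0. The share of higher genes among all those past 2-fold was 47.8% in WT, 66.4% with median centring and 68.5% with normexp, and 51.3% in KO, with 67.5% under normexp, which left 0 genes of the pathways 2-fold above and 1 below. Glycolysis minus cycle, which centring cannot move, was -0.25 in WT and -0.41 in KO, and was below 0 under every alternative tried in both genotypes. The WT value is about the size of the spot spread (0.24), and was -0.16 with quantile and -0.19 with normexp. Its sign depends on the reference, since AGO2-RIP over input gave 0.20 in WT and 0.080 in KO. IgG-RIP over input gave 0.32 and 0.35.

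**Figure D2:**
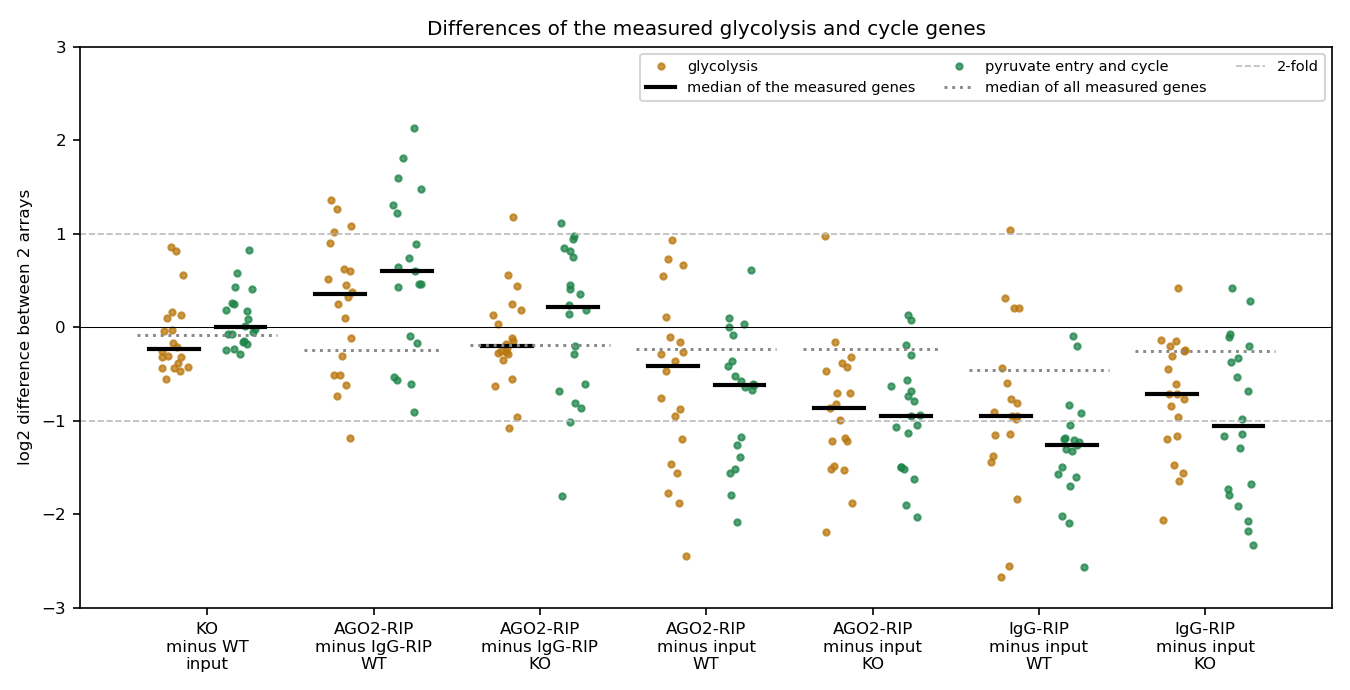
Log2 difference between 2 arrays (y axis) for each measured gene in 7 comparisons (x axis), glycolysis in ochre and pyruvate entry and cycle in green; black bars are medians, dotted lines the median of all measured genes, dashed lines 2-fold. Input differences between genotypes stay within 2-fold, the WT AGO2-RIP over IgG-RIP medians (0.35 and 0.60) lie above the all-gene line (-0.24), and the medians of both precipitates over input lie below 0.

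Slc2a1, the GLUT1 transporter, read 3.59, 3.43 and 2.82 in WT input, AGO2-RIP and IgG-RIP and 3.26, 2.94 and 2.50 in KO, the same order of fractions in both genotypes. Hk2, the inducible hexokinase, read 0.96, 1.62 and 1.17 in WT and 1.51, 1.13 and 1.37 in KO. Its AGO2-RIP was the highest of the 3 WT arrays and the lowest of the 3 KO arrays. Hk3 read 3.18, 2.31 and 3.49 in WT and 4.00, 3.14 and 3.40 in KO, and was the 1 gene whose WT AGO2-RIP lay 2-fold or more below IgG-RIP (-1.18). Hk1, the constitutive hexokinase, read 6.49, 4.04 and 3.94 in WT and 5.94, 3.75 and 4.38 in KO, so its main contrast was between input and either precipitate.

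Phosphofructokinase is set by fructose 2,6-bisphosphate, which Pfkfb3 and Pfkfb4 make. Pfkfb3 read -0.43, 0.50 and 0.61 in WT input, AGO2-RIP and IgG-RIP and -0.47, 0.51 and -0.049 in KO. At this probe it was higher in both precipitates than in input in both genotypes. Its other probe read -1.30, -1.19 and 1.55 in WT and -0.68 in KO input, and was not well above background in either KO precipitate, so in KO the probes go opposite ways. Pfkfb4 read 0.089, 0.82 and -2.98 (not well above background) in WT and 0.22, -0.25 and -1.43 in KO. Over IgG-RIP, Pfkfb4 in AGO2-RIP was at least 7.24-fold higher in WT, a bound set by the dim IgG-RIP array, and 2.26-fold higher (1.18) in KO. Its other probe, dim on 4 arrays, went the other way in WT: it was well above background in IgG-RIP (-1.56) and not in AGO2-RIP (-3.10). Aldoa read 9.20, 9.31 and 8.05 in WT and 8.77, 8.06 and 7.93 in KO, an AGO2-RIP over IgG-RIP difference of 1.26 in WT and 0.13 in KO. Tpi1, which interconverts the triose phosphates, read 6.05, 4.28 and 3.38 in WT and 5.62, 4.11 and 4.46 in KO.

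The lower part of glycolysis divided into genes above and below the control precipitate. Slc16a3, the MCT4 lactate exporter, read 2.17, 2.72 and 1.36 in WT input, AGO2-RIP and IgG-RIP and 1.86, 1.43 and 1.61 in KO. The AGO2-RIP over IgG-RIP difference of 1.36 in WT was the highest measured in glycolysis, and that in KO was -0.18. The 2 Slc16a3 probes, which overlap almost fully, differed little, at 1.36 each in WT. Pgk1 and Pgam1, phosphoglycerate kinase and mutase, were 1.02 and 1.08 higher in WT, and -0.11 and 0.25 in KO. Ldha, the lactate dehydrogenase subunit of glycolytic cells, read 7.26, 6.98 and 6.35 in WT and 6.79, 6.63 and 6.59 in KO, so its KO arrays were nearly level at this probe, while its dimmest probe gave 1.68 for AGO2-RIP over IgG-RIP in KO. Pkm, pyruvate kinase, read 7.13, 5.25 and 5.98 in WT and 6.75, 5.26 and 5.55 in KO. In both genotypes its AGO2-RIP lay below its IgG-RIP (-0.73 and -0.29), as were Gapdh (-0.62 and -1.08) and Eno1 (-0.51 and -0.22).

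At the entry of pyruvate, subunits of 1 complex went different ways. Pdhb, the beta subunit of pyruvate dehydrogenase, read 3.43, 3.47 and 1.34 in WT input, AGO2-RIP and IgG-RIP and 3.20, 3.02 and 2.04 in KO. The AGO2-RIP was within the spot spread of input in both genotypes while the IgG-RIP lay below both, and the AGO2-RIP over IgG-RIP difference of 2.13 (4.38-fold) in WT was the highest of the 39 measured. In KO it was 0.97. Its second probe well above background gave 1.86 and 0.81. Pdha1, the alpha subunit, read 0.022, -2.06 and -1.16 in WT and 0.0043, -0.78 and -1.73 in KO, that is -0.90 in WT and 0.94 in KO over IgG-RIP. In input the genotypes differed by -0.23 for Pdhb and -0.018 for Pdha1.

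Pdk1, the kinase that switches pyruvate dehydrogenase off, read 1.37, -0.022 and 0.54 in WT and 1.12, -0.78 and 1.02 in KO. Its KO AGO2-RIP over IgG-RIP difference of -1.80 was the lowest of the 40 genes measured there. Dlat, the E2 subunit, read 0.14, -0.38 and -1.12 in WT and 0.57, -0.49 and 0.38 in KO, a difference of 0.74 over IgG-RIP in WT and -0.87 in KO. Dld, the E3 subunit shared with oxoglutarate dehydrogenase, read 1.84, 0.28 and -0.18 in WT and 2.24, 0.73 and -0.090 in KO, with both precipitates well below input. Pcx read -3.93, -1.48 and -4.07 in WT and -4.38, -4.25 and -3.83 in KO, where only the WT AGO2-RIP value was well above background. That value was at least 1.47-fold above IgG-RIP and at least 1.38-fold above input.

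In the cycle itself, Sucla2 was the 1 gene of the 38 measured in both genotypes whose AGO2-RIP reached 2-fold above IgG-RIP in each, as 6.32% of 14055 genes did. Sucla2 is the ADP-forming beta subunit of succinyl-CoA ligase, and it read 2.38, 2.99 and 1.18 in WT and 2.63, 2.07 and 0.96 in KO. These are differences of 1.81 and 1.11, or 3.50-fold and 2.16-fold, and its 1 probe lies at chr14:73995311-73995370 (mm9, plus strand). Suclg2, the GTP-forming beta subunit, read 0.15, -0.49 and -2.12 (not well above background) in WT and 0.0060, 0.082 and -0.67 in KO. Over IgG-RIP its AGO2-RIP was higher by at least 2.90-fold in WT and by 0.76 in KO. Suclg1, the alpha subunit that both share, read 2.46, 1.20 and -0.11 in WT and 2.71, 0.68 and 0.53 in KO, a difference of 1.31 in WT and 0.14 in KO. All 3 subunits were above 0 over IgG-RIP in both genotypes, but Suclg1 in KO lay within the spot spread of 0.24 and Suclg2 in WT is a bound.

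Isocitrate dehydrogenases differed by form. Idh1 read 2.46, 2.46 and 1.23 in WT input, AGO2-RIP and IgG-RIP and 3.28, 2.34 and 1.49 in KO, and the AGO2-RIP lay above IgG-RIP in both (1.22 and 0.85). Idh2, its mitochondrial counterpart, was 1.48 higher in WT and 0.35 in KO. The NAD-linked enzyme of the cycle has 3 subunits. Idh3a read 2.53, 1.01 and 1.61 in WT and 2.35, 0.85 and 0.44 in KO, or -0.61 and 0.41 over IgG-RIP. Idh3b read 2.62, 0.83 and 0.92 in WT and 3.21, 1.58 and 1.13 in KO, or -0.091 and 0.45. Idh3g was 0.47 in WT and -0.61 in KO, the reverse of Idh3a.

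Citrate synthase (Cs) read 4.14, 3.46 and 2.81 in WT and 3.97, 2.93 and 3.61 in KO, above IgG-RIP in WT (0.65) and below it in KO (-0.68). Ogdh, the E1 subunit of oxoglutarate dehydrogenase, read 4.90, 4.29 and 3.69 in WT and 4.91, 4.18 and 5.20 in KO, at 0.60 and -1.02. For both, the KO IgG-RIP was higher than the WT IgG-RIP while input and AGO2-RIP differed less. Mdh1, the cytosolic malate dehydrogenase, read 5.03, 5.13 and 3.53 in WT and 5.20, 4.25 and 4.06 in KO, at 1.60 and 0.19. Aco1, the cytosolic aconitase that also serves as an iron regulatory protein, read -0.92, -1.29 and -1.12 in WT and -1.21, -1.08 and -0.79 in KO, so its 6 values lay between -1.29 and -0.79.

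The WT minus KO difference of AGO2-RIP over IgG-RIP was above 0 in 30 of 38 genes, 15 of 19 in each pathway, where 51.3% of all 14055 genes measured on the 4 arrays were. It reached 2-fold above 0 in 14 of the 38, 5 of glycolysis and 9 of the cycle, and at least 2-fold below 0 in 2, against 20.2% and 16.5% of all genes. Medians were 0.59 for glycolysis, 0.70 for the cycle and 0.033 for all genes. Quantile normalization gave 27 of 38 above 0 (46% of all genes), and 8 and 3 past 2-fold. With median centring 19 and 1 were past 2-fold and the median of all genes was 0.35. Under quantile and median centring these counts stand without the share of all genes past 2-fold. Among all genes past 2-fold, the share above 0 was 55.1%, and 74.5% with median centring, 65.1% with normexp and 45.8% with quantile. The highest were Ogdh (1.62, with 1.48 and -0.72 at its other probes), Dlat (1.61) and Slc16a3 (1.54), and the lowest Pdha1 (-1.85), Idh3a (-1.02) and Hk3 (-0.92). Pdha1 and Idh3a were the 2 genes at least 2-fold below 0.

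**Figure D3:**
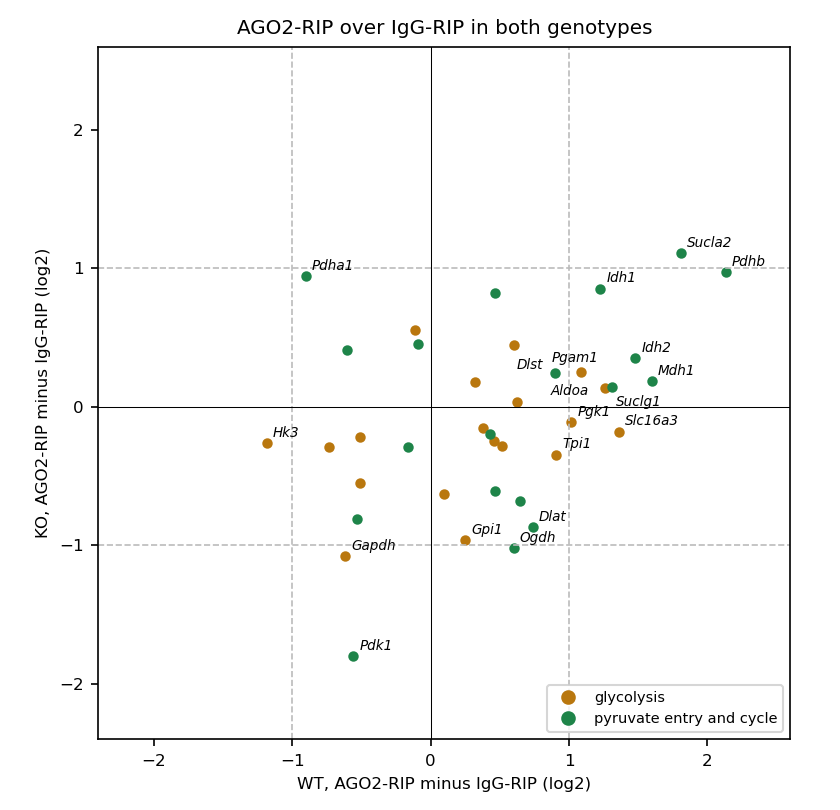
AGO2-RIP minus IgG-RIP (log2) in WT on the x axis and in KO on the y axis for the 38 genes measured on all 4 arrays; dashed lines mark 2-fold. Sucla2 (1.81 and 1.11) is the 1 gene past 2-fold on both axes, and Pdha1 (-0.90 and 0.94) and Slc16a3 (1.36 and -0.18) lie on opposite sides of 0.

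These WT and KO differences share no array, and over the 38 genes they correlated with Pearson r = 0.389 and Spearman rho = 0.366, against 0.453 and 0.397 over the 14055 genes, as a description with genes that are not independent. The GC content of the probe had r = -0.286 with the difference in WT (39 genes) and -0.334 in KO (40 genes). Probes of the cycle had a median GC content of 40.0% and those of glycolysis 45%, so base composition goes with the split between the pathways, and its part in the result was not tested.

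Against input, both precipitates held less of these transcripts. In AGO2-RIP, 13 of 40 genes in WT and 17 of 39 in KO lay 2-fold or more below input, and 0 that far above it. Over all genes, 26.4% were lower and 14.8% higher in WT, and 26.4% and 14.6% in KO. In IgG-RIP, 22 of 38 were lower and 1 higher in WT, beside 37% and 18.6% of all genes, and in KO 16 of 40 were lower and 0 higher, beside 28.8% and 17.5%. Medians of glycolysis, cycle and all genes were -0.41, -0.61 and -0.24 for AGO2-RIP in WT, -0.87, -0.95 and -0.24 in KO, -0.94, -1.26 and -0.45 for IgG-RIP in WT and -0.71, -1.06 and -0.26 in KO. The same arrays serve as input in both sets. The 1 gene at least 2-fold higher was Pfkfb3 in WT IgG-RIP (1.04).

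Genes at least 2-fold lower in AGO2-RIP than in input in both genotypes were 6 of glycolysis (Hk1, Gpi1, Tpi1, Gapdh, Eno1 and Pkm) and 6 of the cycle (Pdk1, Dld, Idh3a, Idh3b, Suclg1 and Mdh2), 12 of 39 measured in both where 20% of 13868 genes were. In IgG-RIP there were 4 of glycolysis (Hk1, Tpi1, Pgam1 and Pkm) and 9 of the cycle (Pdha1, Pdhb, Dld, Idh1, Idh3b, Suclg1, Sucla2, Mdh1 and Mdh2), 13 of 38 where 24.5% of 12552 genes were. The lowest were Hk1 (-2.45), Pdha1 (-2.08) and Pkm (-1.88) in the WT AGO2-RIP and Hk1 (-2.19), Suclg1 (-2.03) and Pdk1 (-1.91) in the KO AGO2-RIP. In IgG-RIP they were Tpi1 (-2.68), Suclg1 (-2.56) and Hk1 (-2.55) in WT and Dld (-2.33), Suclg1 (-2.18) and Idh3b (-2.08) in KO. The highest in AGO2-RIP were Pfkfb3 (0.93), Pfkfb4 (0.74) and Hk2 (0.67) in WT and Pfkfb3 (0.97), Aco1 (0.13) and Suclg2 (0.076) in KO. Those in IgG-RIP were Pfkfb3 (1.04), Hk3 (0.31) and Hk2 (0.21) in WT and Aco1 (0.42), Pfkfb3 (0.42) and Ogdh (0.29) in KO. Eno2, not well above background in KO AGO2-RIP, was at least 3.38-fold lower there than in input, and Pfkfb4 and Suclg2 were at least 4.35-fold and 4.53-fold lower in WT IgG-RIP than in input.

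Counts over input also move with the scaling. The WT median of all genes for IgG-RIP over input went from -0.45 to -1.04 with median centring, which put 32 of the 38 genes at least 2-fold lower, and to -0.14 with quantile normalization, which put 10 there. For AGO2-RIP the lower genes were 16 in WT and 29 in KO with median centring and 9 and 10 with quantile, and for IgG-RIP in KO 25 and 11. The shares of all genes past 2-fold in these settings are not given here, so an excess over all genes cannot be read from these counts. The share of higher genes among all those past 2-fold was 36.0%, 35.6%, 33.5% and 37.8% for AGO2-RIP in WT and KO and IgG-RIP in WT and KO, 23.5%, 16.0%, 17.8% and 19.1% with median centring, and 46.1%, 46.8%, 45.9% and 50.1% with quantile. Glycolysis minus cycle was 0.32 and 0.35 for IgG-RIP over input in WT and KO, above 0 under every alternative. For AGO2-RIP over input it was 0.20 and 0.080, within the spread of 1 difference between spots, and its sign turned in WT with the median of a gene's probes (-0.17) and over genes above background on all 6 arrays (-0.0053), and in KO with quantile (-0.039) and normexp (-0.025).

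With the genotypes standing in as replicates of a fraction, limma (fraction plus genotype, Benjamini-Hochberg over 18888 genes) called 9 of the 41 tested genes lower in IgG-RIP than in input and 0 higher, where 15.8% of all genes were lower and 14.3% higher. The 9 were Hk1, Tpi1 and Pgam1 of glycolysis and Dld, Suclg1, Idh3b, Mdh2, Idh1 and Pdhb of the cycle. The 3 with the largest difference fell by 2.37 (Suclg1, SE 0.45, limma adjusted p = 0.024), 2.18 (Dld, SE 0.38, limma adjusted p = 0.022) and 2.06 (Hk1, SE 0.43, limma adjusted p = 0.028), each lower in both genotypes. For AGO2-RIP over input, limma called 1 gene, Hk1, which fell by 2.32 (SE 0.43, limma adjusted p = 0.041), and 0 higher, where 5.77% of all genes were lower and 4.47% higher. With the median of a gene's probes Hk1 was called in neither comparison, and Gapdh and Tpi1 were called for AGO2-RIP. These counts ran from 0 to 12 for AGO2-RIP and from 2 to 19 for IgG-RIP over the alternatives, so they depend on the setting. For AGO2-RIP over IgG-RIP limma called 0 of the 41 and 0 of all genes (0% higher and 0% lower). At an unadjusted p under 0.05 there were 4 of the 41 (Pfkfb4, Pdhb, Sucla2 and Pdk1) and 3554 of all genes. The error of this fit is the genotype by fraction interaction, with 2 residual degrees of freedom.

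Gapdh, often used as a reference transcript, has 7 probes and so gives a check within 1 gene. The probe that represents it here starts at base 740 of the transcript, and the array files place it on chromosome 8 (chr8:94212520-94212579, mm9) and not with the others on chromosome 6, where the gene lies. It read 7.87, 6.31 and 6.93 in WT input, AGO2-RIP and IgG-RIP and 7.84, 6.32 and 7.39 in KO. The 5 probes nearest the transcript's start are shown because this probe and its neighbours are among them, with the sites of Alu I (agct) and Rsa I (gtac), the enzymes that cut the cDNA before labelling, in capitals.

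Gapdh 156: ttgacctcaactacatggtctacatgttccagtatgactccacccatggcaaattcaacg
Gapdh 239: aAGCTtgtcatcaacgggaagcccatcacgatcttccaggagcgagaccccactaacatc
Gapdh 391: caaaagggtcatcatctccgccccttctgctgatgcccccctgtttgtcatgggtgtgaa
Gapdh 740: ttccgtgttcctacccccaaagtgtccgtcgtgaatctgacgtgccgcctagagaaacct
Gapdh 897: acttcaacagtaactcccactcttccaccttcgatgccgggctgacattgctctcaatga

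All 7 probes gave the same order of fractions in both genotypes, input above IgG-RIP above AGO2-RIP. AGO2-RIP minus IgG-RIP ran from -0.87 to -0.39 in WT and from -1.08 to -0.49 in KO, and AGO2-RIP was at least 2-fold below input for 7 of 7 probes in both. The probe at 740 was at the edge of the range for input against IgG-RIP, at -0.94 in WT and -0.45 in KO, where the 7 reached -2.02 and -1.85. Probe 239, which holds an Alu I site at its start, had the lowest of the 7 differences from input in KO, in both AGO2-RIP (-2.45) and IgG-RIP (-1.85), while in WT probe 897, which holds no site, was lowest (-2.56 and -2.02). Pgk1's brighter probe is likewise placed on another chromosome (chr3:57906830-57906894), and its probe on the X chromosome gave 1.08 in WT and 0.10 in KO, against 1.02 and -0.11. With the brightest probes placed at the 2 genes, 13 and not 14 genes were at least 2-fold above 0 in the WT minus KO difference.

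**Figure D4:**
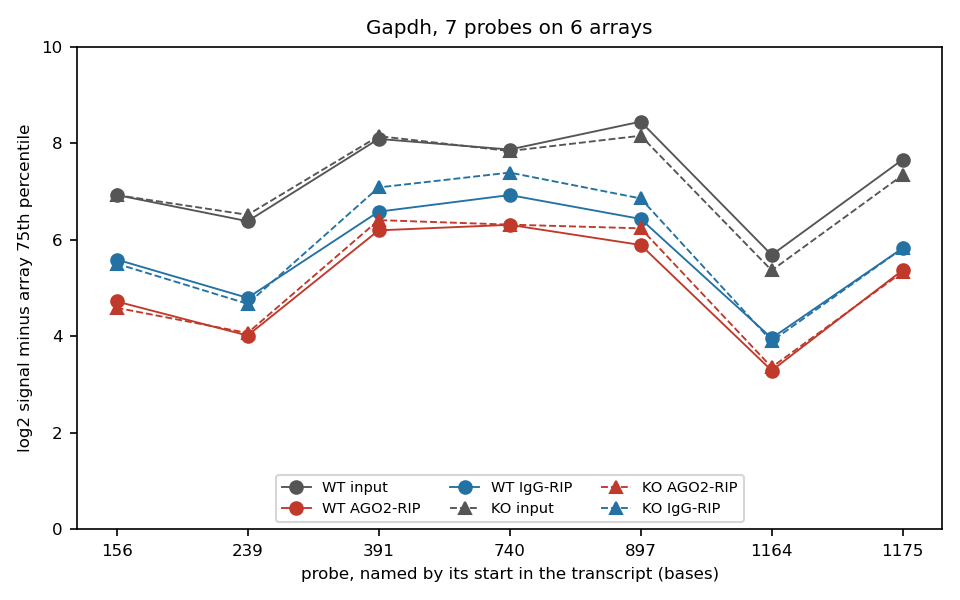
Log2 signal minus the array's 75th percentile (y axis) of the 7 Gapdh probes, ordered by start in the transcript (x axis), on the 6 arrays, 1 line per array. At every probe both input arrays lie highest and both AGO2-RIP arrays lowest, and the level itself differs between probes, from 5.69 to 8.45 in WT input.

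Of the 42 genes, 14 had more than 1 probe, and the probes of some genes overlap, as for Gpi1 and Slc16a3. All measured probes of a gene had the same sign for AGO2-RIP over IgG-RIP in 8 of 12 genes in WT and 9 of 12 in KO, for AGO2-RIP over input in 13 of 13 and 11 of 12, and for the WT minus KO difference in 5 of 11. Hk1, Fh1, Ogdh and Tpi1 were of mixed sign in WT. For Ogdh, 2 probes gave 0.60 and the third, nearest the 3′ end, -1.19. For Hk1 the range was -1.61 to 0.10. Pfkfb3 had -0.11 at the probe used and -2.73 at the other. Of the 66 probes, 20 (30.3%) held an Alu I or Rsa I site, against 34.9% of 55681 array probes.

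HIF-1, the hypoxia-inducible factor that drives many glycolytic genes, binds ACGTG or GCGTG, and the 250 bases upstream of each start were searched for these letters on either strand (RefSeq, GRCm38.p6, 41 of the 42 genes matched). They were present in 18 of 21 glycolysis genes and 12 of 20 cycle genes, against 41.5% of 27025 genes. CACGTG, the E box, which overlaps ACGTG, was in 3 and 2 genes (6.86% of all genes), AAGGTCA, a site of estrogen-related receptors, in 1 and 0 (4.70%), and the palindromic NRF1 site in 0 and 0 (0.88%). A match is a string of letters and not a bound site. Some genes have several starts, and a gene counts if any of them matched. The shares were not adjusted for the number of starts or for the base composition of the upstream regions. Ldha (chr7:46845554-46845803, plus strand, the first of its 2 starts) is shown as the upstream region with the most matches, 5, and Pgk1 (chrX:106186850-106187099, plus strand, 2 matches) as a well-known HIF-1 target. Suclg1 (chr6:73248255-73248504, plus strand, 3 matches) is shown as a cycle gene that limma called; Ogdh had up to 4. Matches are in capitals, CACGT and CACGC are matches read on the other strand, and each CACGTG holds a match on both strands.

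Ldha: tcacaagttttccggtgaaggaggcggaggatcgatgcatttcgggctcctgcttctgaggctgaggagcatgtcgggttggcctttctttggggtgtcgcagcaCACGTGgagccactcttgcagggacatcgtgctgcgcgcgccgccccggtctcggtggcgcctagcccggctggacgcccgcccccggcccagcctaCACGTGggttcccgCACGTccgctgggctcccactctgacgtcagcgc
Suclg1: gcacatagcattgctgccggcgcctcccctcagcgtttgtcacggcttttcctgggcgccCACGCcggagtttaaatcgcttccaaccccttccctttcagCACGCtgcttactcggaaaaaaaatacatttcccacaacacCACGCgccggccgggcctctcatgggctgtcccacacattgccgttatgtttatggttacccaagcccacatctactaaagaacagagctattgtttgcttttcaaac
Pgk1: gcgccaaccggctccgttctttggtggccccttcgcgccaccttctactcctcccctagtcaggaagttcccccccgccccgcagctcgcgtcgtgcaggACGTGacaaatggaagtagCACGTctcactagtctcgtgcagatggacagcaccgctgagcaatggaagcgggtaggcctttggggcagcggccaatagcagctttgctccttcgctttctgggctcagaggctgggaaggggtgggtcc

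In input, where these 3 genes differed by -0.47 (Ldha), 0.26 (Suclg1) and -0.21 (Pgk1) between KO and WT, none reached 2-fold. Hif1a itself read 1.24, 0.75 and -0.79 in WT input, AGO2-RIP and IgG-RIP and 0.91, 0.15 and -0.14 in KO.

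In related lists some genes passed 2-fold in input, where 1.02% of 14664 genes were at least 2-fold higher in KO and 1.73% lower. None of the 7 pentose phosphate genes differed by 2-fold between KO and WT input (Rpia -0.50 to G6pdx 0.060), 1 of 15 measured pyruvate and cycle link genes was at least 2-fold lower (Pdk3, a further pyruvate dehydrogenase kinase, -1.57) and 0 higher, and 1 of 13 HIF and glycolysis regulators was at least 2-fold higher (Hif1an, the asparaginyl hydroxylase that inhibits HIF, 1.57). Of 8 measured genes in a list of further glycolysis genes, 1 was at least 2-fold higher (Slc16a7, 1.33) and 1 lower (Slc2a6, -1.15). The shares of all genes past 2-fold over IgG-RIP were 20.3% higher and 22.2% lower in WT and 10.5% and 9.92% in KO. In WT, AGO2-RIP reached 2-fold for 5 of 13 link genes, led by the mitochondrial pyruvate carrier Mpc1 (2.54), with 0 lower and Pdp1 lowest (-0.98). It reached 2-fold for 5 of 11 regulators, led by Myc (2.81), and lay 2-fold below for 1 (Epas1, -1.18). In KO, 1 of 12 link genes (Got1, 1.03) and 1 of 12 regulators (Myc, 2.66) were at least 2-fold higher and 0 lower. The pentose phosphate genes ran from -0.74 (Pgls) to 1.95 (G6pdx) in WT, with 2 of 7 higher, and from -2.20 (Pgls) to 0.096 (Taldo1) in KO. Among the further glycolysis genes, Bpgm was highest in both genotypes (2.99 in WT and 1.38 in KO), and Eno3 was lowest in KO (-1.37).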

How the data were processed

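The 6 Cy3 arrays, scanned and read with Feature Extraction (10.7.3.1 in the submitters' processing notes), carry probes annotated on mm9 and lay on 1 slide in 1 scan, with KO and WT in different slide rows. Per the file headers, the deposited processed signal is an intensity on a linear scale, with spatial and multiplicative detrending on and the separate background correction off, and not normalized between arrays. Per the labels' protocols, RNA was pre-amplified and 500 ng of cDNA, digested by Alu I plus Rsa I, was labelled by random priming, which can weight transcripts unequally. Beads were incubated with lysate for 7 hours.

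The log2 of the deposited intensity was scaled by subtracting each array's 75th percentile (59305 non-control spots). After averaging repeated spots and dropping 54 probes for outlier flags, 55627 probes remained. Measured means well above background on every array compared. With 1 dim array, the bound is the bright value set against the dim probe's own value or that array's dimmest detected spot, whichever is higher. Limma 3.58.1 in R 4.3.3 tested fractions (two-sided, genes above background on at least 2 arrays, calls at adjusted p under 0.05). AGO2-RIP over IgG-RIP was simulated with the moderated spreads that limma itself fitted to the 18888 genes. On these simulated data limma called 45 of 50 genes changed by 4 log2 units, 6 of 50 changed by 2, and 5 of 18688 unchanged genes. The spreads were already shrunk when drawn, so these rates can overstate recovery on the arrays, where limma called 0 of the 18888 genes. A change of 4 exceeds every measured difference of the 2 pathways there, the highest being 2.13 in WT, so only the changes of 2 bear on them. An earlier simulation with unmoderated spreads and smaller changes gave no calls, and its spread and change sizes were reset after that, so small changes can go uncalled. Other steps used Python 3.11.15, numpy 2.4.6 and pandas 2.3.3. No label says which samples share an animal or culture, so p-values measure only the spread between these arrays.

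The genes, lists and tests were chosen with earlier results of these data known. Named genes are the 3 highest and 3 lowest in each comparison, 11 landmarks (Slc2a1, Hk2, Gapdh, Pkm, Ldha, Pdk1, Pdha1, Cs, Idh1, Ogdh and Pcx), limma's calls, and the extremes of each further list, of which 1 is not reported here. Others named were chosen after their values were seen. Alternatives were median centring, quantile normalization, normexp (offset 50), no filter or a filter over all 6 arrays, the median of probes, and, for limma, no genotype term or a trend. The probes of Gapdh and Pgk1 placed at the gene were added after seeing the data. The genotype term of the fit pairs the 3 fractions of a genotype. Within a comparison no replicates could be paired, because each group has 1 array.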

Additional observations from a re-analysis of the deposited data

Results flagged for a closer look

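For 10 of 38 genes, AGO2-RIP lay on opposite sides of IgG-RIP in WT and KO with a WT minus KO difference of at least 2-fold, as for 18.5% of 14055 genes. For Tpi1 (1.25) and Ogdh (1.62), probes of the gene differed in the sign of that difference, and the other 8 are given here. Each difference rests on 4 arrays and was not tested. WT was higher for Gpi1 (1.21, from 0.25 in WT and -0.96 in KO), Pgk1 (1.13), Slc16a3 (1.54), Dlat (1.61, from 0.74 and -0.87), Cs (1.33) and Idh3g (1.07, from 0.47 and -0.61). WT was lower for Pdha1 (-1.85) and Idh3a (-1.02). All 3 Gpi1 probes gave a positive WT minus KO difference, from 1.00 to 1.21, as did both of Slc16a3, at 1.54 and 1.62, and both of Pgk1, at 0.98 and 1.13, though only the brighter Pgk1 probe lay on opposite sides, since the other read 0.10 in KO. The Gpi1 probes start at bases 1964, 1968 and 1969 of the transcript and the Slc16a3 probes at 2201 and 2208. These probes of 60 bases overlap almost fully, so their agreement is not a separate check. The other 5 genes have 1 probe each.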

How the results depend on the processing

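Of 850 gene values under the alternatives, 612 moved by less than the spot spread and 238 by more. Sign changed in 12, 7 of them with median centring and none at a value past 2-fold, and in 3 both values were beyond the spot spread: Hk3 in WT IgG-RIP over input (0.31 to -0.27, median centring), and Pfkfb3 in KO over input for AGO2-RIP (0.97 to -0.82) and IgG-RIP (0.42 to -0.69), both with the median of probes. Of 56 alternative values of glycolysis minus cycle, 4 moved by more than that spread: for AGO2-RIP over input in WT it was -0.17 with the median of probes, for IgG-RIP over input 0.67 in WT with quantile and 0.0985 in KO with normexp, and for the WT minus KO difference -0.50 with the median of probes, and the cause was not tested. Limma tested 41 genes in the main fit, 37 over genes above background on all 6 arrays and 42 without a filter. Called lower in AGO2-RIP than in input were 7 with median centring, 0 with quantile, 11 with normexp and 11 on all 6 arrays. They were 0 without a filter, 2 with the median of probes, 8 without the genotype term and 12 with a trend. For IgG-RIP the counts were 18 with median centring, 2 with quantile, 19 with normexp and 16 on all 6 arrays. They were 5 without a filter, 8 with the median of probes, 12 without the genotype term and 17 with a trend. The share of all genes called under each alternative is not given here, so an excess over all genes cannot be read from these counts. For AGO2-RIP over IgG-RIP limma called 0 of these genes under every alternative, and of all genes 248 higher and 15 lower with normexp, 538 and 40 on all 6 arrays, 134 and 12 without the genotype term and 378 and 16 with a trend. Pcx, Pfkm, Pfkfb4, Eno2 and Suclg2 were too dim on at least 1 array for a full set of values.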
